A study of Rattus norvegicus with 7 samples.

Results

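The miRNAs described here are those named after neurons: rno-miR-124 and rno-miR-9 with their star strands (the opposite strands of the same hairpins), and rno-miR-128, rno-miR-137, rno-miR-138, rno-miR-153 and rno-miR-218. They were chosen by name, and 8 of the 9 names were found among the 677 rat miRNAs on the array. The array lists rno-miR-218 only as rno-miR-218a, which is therefore described beside the others and left out of their counts. The arrays had been hybridised with islet RNA of male Wistar rats, 4 of them aged 12 months (replicates 2, 4, 10 and 16) and 3 aged 3 months (replicates 9, 11 and 13). The labels name no treatment, and each array carried the RNA of 1 rat, here called rat 2, rat 4 and so on. Islets hold endocrine cells together with vessels, nerve endings and other cells, so the RNA was that of a mixed tissue. The question was whether the other neuronal miRNAs accompanied miR-124 in the older islets.

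MiRNAs guide Argonaute proteins to messenger RNAs that pair with the seed, bases 2 to 8 of the mature strand. MiR-124 and miR-9 are the classical miRNAs of neurons, where they hold back non-neuronal transcripts and oppose the repressor REST, which in turn represses their genes. Beta cells resemble neurons in lacking REST and in using the same machinery for regulated exocytosis, and several miRNAs first known from brain are also found in islets.

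RefSeq (build GRCr8) held the mature sequences of 7 of the 9 names looked up. They are shown because the seed decides which transcripts a miRNA can pair with, and the capitals mark bases 2 to 8. MiR-124 and miR-124* are named only.
rno-miR-9 (miR-9a-5p): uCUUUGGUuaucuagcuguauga
rno-miR-9* (miR-9a-3p): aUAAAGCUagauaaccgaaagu
rno-miR-128 (miR-128-3p): uCACAGUGaaccggucucuuu
rno-miR-137 (miR-137-3p): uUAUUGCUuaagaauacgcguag
rno-miR-138 (miR-138-5p): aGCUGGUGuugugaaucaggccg
rno-miR-153 (miR-153-3p): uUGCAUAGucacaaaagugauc
rno-miR-218a (miR-218a-5p): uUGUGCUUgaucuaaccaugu
The 7 sequences carry 7 different seeds, so the neuronal miRNAs are a group by tissue and not by target pairing. None of the 7 shares its seed with another of the 693 mature names in the table. The array's older names were matched to these arms by the naming convention for the dominant strand and its star.

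The genes of these miRNAs lie apart in the rat genome. MiR-153-3p is at chr6:144306646-144306667 on the plus strand, inside the span of Ptprn2, which encodes a membrane protein of insulin and neurosecretory granules. MiR-137-3p is at chr2:209165767-209165789 on the plus strand, inside the span of a long non-coding RNA, LOC120100931. One copy of miR-128-3p lies within R3hdm1 at chr13:42251933-42251953 on the plus strand, and the other lies within Arpp21, a gene of striatal neurons. The copies of miR-218a-5p lie within Slit3 at chr10:20572547-20572567 on the plus strand and within Slit2 at chr14:66922413-66922433 on the minus strand. Slit2 and Slit3 encode axon guidance ligands. The table lists 3 genes for miR-124 and 3 for miR-9, and its spans do not separate exons from introns.

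Signals below are background-subtracted total gene signals, the sum over all spots of a miRNA, in the scanner's arbitrary units. A miRNA counts as detected where the array software's own flag says so. Probes differ in brightness, so the signal of one miRNA was not compared with that of another as a level. The arrays of the older rats were brighter: the 75th percentile of the signals was 70.5 ± 2.79 units (SD, n = 4) at 12 months and 46.0 ± 9.0 units (SD, n = 3) at 3 months, without overlap (exact two-sided permutation test, p = 0.0286). They also detected more miRNAs, 278 to 296 against 246 to 272. Ages were therefore compared on log2 values after quantile normalization, which gives every array the same distribution. The endocrine markers miR-375, miR-7a and miR-7b were detected on all 7 arrays. Normalized, they were lower at 12 months by 0.07 to 0.27 on the log2 scale, none past the test. Before normalization the log2 ratio of their mean signals, 12 to 3 months, was 0.59 to 0.90. MiR-7a had the same normalized value in all 3 younger rats, because the method gives miRNAs of equal rank the same value. Its small difference is thus largely set by the method.

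MiR-124 was detected in the islets of every 12-month-old rat and in none of those aged 3 months. Its signal was 59.2 units in rat 2, 14.7 in rat 4, 134 in rat 10 and 59.7 in rat 16. In the 3-month-old rats it was -2.08, -0.998 and -1.70 units in rats 9, 11 and 13, which is at background. The ages did not overlap, although the older rats differed among themselves, with rat 10 highest and rat 4 lowest.

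After normalization miR-124 averaged 5.42 ± 1.41 (log2, SD, n = 4) at 12 months and lay at the floor of 0 in all 3 younger rats. The log2 fold change was 5.42 with an SE of 0.67 and a limma adjusted p of 0.00269. The 3 younger values, all at the floor, added no spread, so this SE and p may be too small. MiR-124 also passed the detection filter through the older rats alone, so some difference was built in. The adjusted p was 0.147 without the detection filter, 0.0880 with the methods' t-test and 0.108 with normexp background correction, where the log2 fold change was 1.06. The deposited matrix gave a log2 fold change of 2.77 (limma adjusted p = 0.0329). Since the fitted change depends on the floor, the size is also given as a bound. At 12 months miR-124 lay 19.7-fold above the faintest miRNAs detected on the younger arrays. Undetected miRNAs on those arrays can exceed the faintest detected one, so the bound is no strict minimum of the change. This bound was 14.1-fold without rat 10 and 31.2-fold without rat 4. The exact two-sided permutation test over the 35 splits of the rats gave p = 0.0286 on normalized values, the smallest it can give, and p = 0.0571 on the signals before normalization. In the row of the slide that held rats 2, 4 and 9 the difference was 4.58, and in the other row it was 6.25.

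MiR-124 is read by 2 probes of 10 spots each, and they were unequal. Probe 2 gave 53.4, 14.2, 118 and 53.7 units in rats 2, 4, 10 and 16, against -0.18 to 1.10 units in the younger rats. Probe 1 gave 5.74, 0.52, 16.1 and 5.94 units in the same older rats, against -2.37 to -1.52 units. The values of both probes did not overlap between the ages. Probe 1 in rat 4 was smaller than its own software error of 2.19 units, so for that rat it was at background. Probe 2 carried 88.0% to 96.5% of the miR-124 signal of the older rats, so the value of rat 4 rests on that probe.

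**Figure D1:**
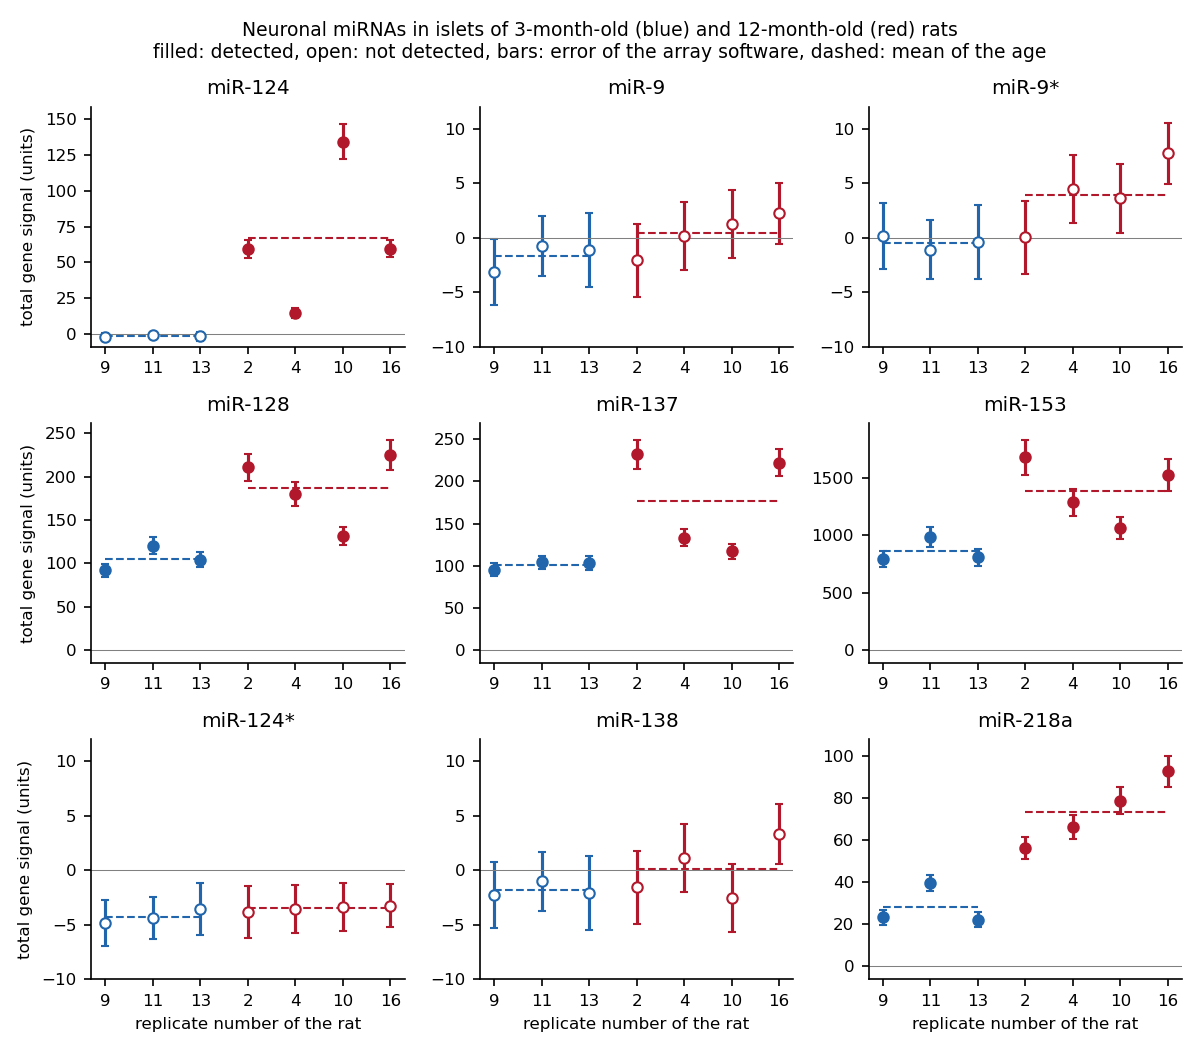
Total gene signal (units, linear axis) of each neuronal miRNA in each rat, with bars for the error given by the array software, filled points where the miRNA was detected and dashed lines at the mean of each age. MiR-124 was detected only in the 4 rats aged 12 months, at 14.7 to 134 units, whereas miR-9, miR-9*, miR-124* and miR-138 stayed below detection in all 7 rats.

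rno-miR-124*, the opposite strand of the miR-124 hairpins, was detected on no array. Its signal was -3.87, -3.57, -3.35 and -3.25 units in rats 2, 4, 10 and 16 and -4.83, -4.43 and -3.54 units in rats 9, 11 and 13. All 7 values lay below 0 and the ages overlapped, rats 2 and 4 lying below rat 13.

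MiR-9, the other classical neuronal miRNA, was detected at neither age. Its signal was -2.07, 0.15, 1.29 and 2.23 units in rats 2, 4, 10 and 16, and -3.17, -0.74 and -1.12 units in rats 9, 11 and 13. The ages overlapped (exact two-sided permutation test on the signals, p = 0.200). The lowest signal that counted as detected on an array lay between 1.42 and 4.92 units, and the highest that did not lay between 10.3 and 14.5 units. A level of miR-9 within or below this range may not have been detectable.

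rno-miR-9*, which targets the co-repressor CoREST and the chromatin subunit BAF53a in neurons, was also detected on no array, but it came nearest to detection. Its signal was 0.03, 4.45, 3.61 and 7.75 units in rats 2, 4, 10 and 16, against 0.14, -1.09 and -0.40 units in rats 9, 11 and 13. Rats 4, 10 and 16 exceeded all younger rats and rat 2 did not (exact two-sided permutation test on the signals, p = 0.0857). The highest value, in rat 16, was 2.76 times its own software error. Where miRNAs were kept regardless of detection, the log2 fold change of miR-9* was 1.43 with a limma adjusted p of 0.432.

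rno-miR-138, a brain miRNA that restrains the growth of dendritic spines, was detected on no array. Its signal was -1.59, 1.12, -2.55 and 3.35 units in rats 2, 4, 10 and 16, and -2.32, -1.03 and -2.08 units in rats 9, 11 and 13. The ages overlapped (exact two-sided permutation test on the signals, p = 0.343).

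The remaining 3, miR-128, miR-137 and miR-153, were detected in every rat of both ages. The signal of rno-miR-128, which damps excitability in neurons, was 211, 180, 131 and 225 units in rats 2, 4, 10 and 16, and 92.1, 120 and 104 units in rats 9, 11 and 13. Normalized, it averaged 7.11 ± 0.32 (log2, SD, n = 4) at 12 months and 7.15 ± 0.23 (SD, n = 3) at 3 months. The log2 difference was -0.04, with a 95% interval from -0.53 to 0.44 and a limma adjusted p of 0.953.

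rno-miR-137, which controls presynaptic vesicle proteins, gave 232, 133, 117 and 222 units in rats 2, 4, 10 and 16, and 95.2, 104 and 104 units in rats 9, 11 and 13. Its normalized means were 7.02 ± 0.49 (log2, SD, n = 4) and 7.10 ± 0.24 (SD, n = 3). The log2 difference was -0.08, with a 95% interval from -0.71 to 0.55 and a limma adjusted p of 0.947. Rats 2 and 16 carried more than rats 4 and 10, a spread wider than the distance between the ages.

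rno-miR-153, known to target synaptic vesicle and alpha-synuclein transcripts, gave 1680, 1288, 1064 and 1528 units in rats 2, 4, 10 and 16. It gave 793, 986 and 809 units in rats 9, 11 and 13. Normalized, it varied least of the 3, with means of 10.07 ± 0.10 (log2, SD, n = 4) and 10.18 ± 0.15 (SD, n = 3). The log2 difference was -0.11, with a 95% interval from -0.44 to 0.21 and a limma adjusted p of 0.751.

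For miR-128, miR-137 and miR-153 the comparison turned on the brightness of the arrays. Before normalization all 3 were higher in every older rat than in any younger one, and after it the ages overlapped. Without any normalization their log2 differences were 0.80, 0.74 and 0.67, with limma adjusted p values of 0.0300, 0.0440 and 0.0417. The median of all 272 miRNAs tested was then 0.79 higher at 12 months, close to each of these values. The cause of the brighter arrays was not tested. Within the rows of the slide the normalized differences were 0.20 and -0.17 for miR-128, 0.06 and -0.16 for miR-137, and -0.01 and -0.15 for miR-153. In rat 10, which had the highest miR-124, the signals of miR-128, miR-137 and miR-153 before normalization were the lowest of the 4 older rats. Normalized, this held for miR-128 and miR-137 but not for miR-153, which was 10.08 in rat 10 and 9.93 in rat 4.

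rno-miR-218a, which is known from motor neurons and lies within the Slit genes, was higher in all older rats. Its signal was 56.4, 66.4, 78.9 and 92.7 units in rats 2, 4, 10 and 16, and 23.4, 39.7 and 22.3 units in rats 9, 11 and 13. Its normalized means were 5.93 ± 0.30 (log2, SD, n = 4) and 5.11 ± 0.24 (SD, n = 3), without overlap. The log2 difference was 0.82, with a 95% interval from 0.34 to 1.29, which did not pass adjustment over all miRNAs (limma adjusted p = 0.0608). The exact two-sided permutation test for this miRNA alone gave p = 0.0286. Before normalization the mean signal was 2.70-fold higher for one probe and 2.51-fold higher for the other. Over the alternatives the log2 difference was 0.42 to 1.40 and the limma adjusted p 0.00575 to 0.545. The adjusted p was below 0.05 under 3 of the 23, the slide row as a block (0.0325), array weights (0.0448) and no normalization. It was 0.545 after scaling to miR-7a and 0.158 with the methods' t-test. In the 2 rows the differences were 0.79 and 0.96.

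**Figure D2:**
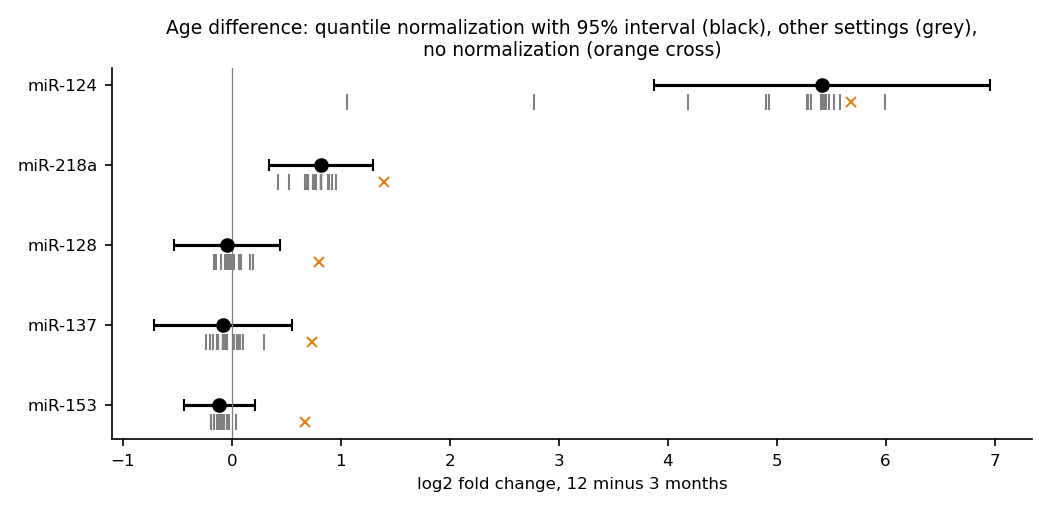
Log2 fold change (12 minus 3 months) of each neuronal miRNA that was tested and of miR-218a, with the 95% interval after quantile normalization (black), the values under the other settings (grey) and without normalization (orange cross). MiR-124 lies at 5.42 and above 0 under each of its settings, miR-218a lies at 0.82, and the intervals of miR-128, miR-137 and miR-153 include 0.

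**Figure D3:**
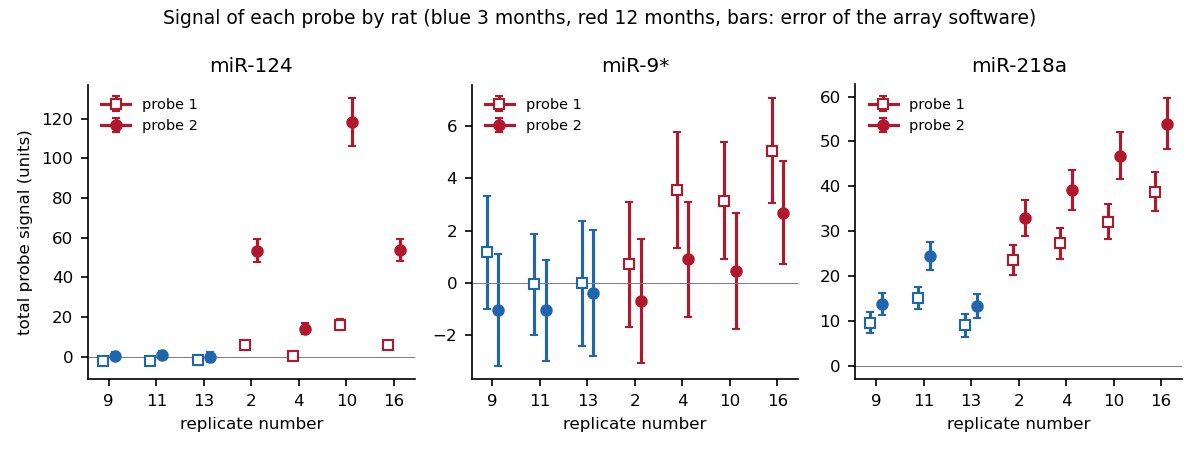
Total signal (units) of the 2 probes of miR-124, miR-9* and miR-218a in each rat, with the error given by the array software. Probe 2 carries 88.0% to 96.5% of the miR-124 signal of the older rats, whereas both probes of miR-218a are higher in all 4 older rats than in the 3 younger ones.

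Of the 8 neuronal miRNAs found, 4 entered the test, which took miRNAs detected in every rat of one or both ages, and the other 4 were detected nowhere. MiR-124 was the single one with a limma adjusted p below 0.05, against 1.47% of all 272 miRNAs tested (4 miRNAs). It was also the single one with an unadjusted p below 0.05 (21.7% of all tested) and the single one whose ages did not overlap after normalization (17.3% of all tested). The median log2 fold change of the 4 tested was -0.06, beside 0.06 over all miRNAs tested. MiR-124 passed the filter through the older rats alone, so it had to differ by some amount to be tested as it was.

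Where both miRNAs are measured, a ratio taken within an array does not depend on the brightness of that array. In the younger rats miR-124 was below detection and stood at the faintest detected signal of its array, so there the brightness does not cancel. The log2 ratio of miR-124 to each detected neuronal miRNA was compared between the ages, with every signal raised to at least that floor. Relative to miR-128, miR-124 lay at -1.83, -3.61, 0.03 and -1.91 in rats 2, 4, 10 and 16, and at -5.87, -5.84 and -6.20 in rats 9, 11 and 13. The ages did not overlap, rat 10 was highest and rat 4 was nearest to the younger rats.

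The mean log2 ratio was higher at 12 months by 4.14 relative to miR-128 (exact two-sided permutation test, p = 0.0571). It was higher by 4.20 relative to miR-137 and by 4.27 relative to miR-153 (exact two-sided permutation test, p = 0.0286 each). Adjusted over these 3 comparisons the exact p values were 0.0571, 0.0429 and 0.0429. Relative to miR-218a the log2 ratio was higher by 3.54, again without overlap (exact two-sided permutation test, p = 0.0571, not adjusted). The 4 ratios share the miR-124 values and are not independent of each other, and the sizes are set by the floor of the younger arrays. After adjustment the p was below 0.05 for miR-137 and miR-153 and not for miR-128. With a floor of 1 unit the exact permutation p for miR-128 was also 0.0286, so this split depends on the floor. MiR-124 was compared because every older rat and no younger rat detected it, so a higher ratio was largely built in. The p values are therefore no independent test of unequal change.

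**Figure D4:**
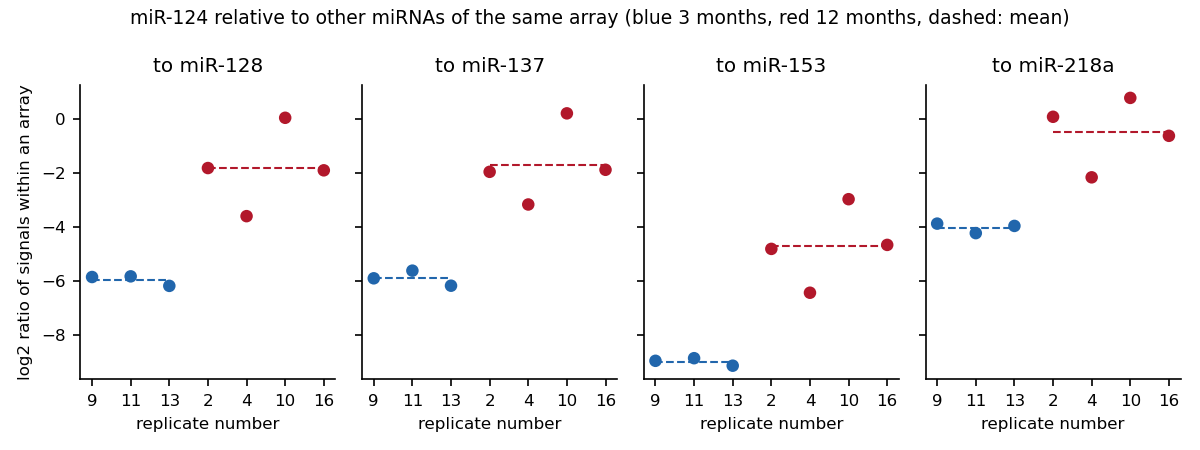
Log2 ratio of the signal of miR-124 to that of miR-128, miR-137, miR-153 and miR-218a within each array, with dashed lines at the mean of each age. In each panel the 4 older rats lie above the 3 younger ones, and the distance between the means is 4.14, 4.20, 4.27 and 3.54.

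The ratios of the detected neuronal miRNAs to each other overlapped between the ages. All 6 pairs of miR-128, miR-137, miR-153 and miR-218a were compared in this way after the data had been seen. The log2 ratio of miR-128 to miR-153 was -2.90 ± 0.12 (SD, n = 4) at 12 months and -3.03 ± 0.07 (SD, n = 3) at 3 months. The largest difference between the ages was -0.72, for miR-153 relative to miR-218a. The ages overlapped for all 6 pairs, and the lowest exact two-sided permutation p adjusted over them was 0.343.

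The other forms of these miRNAs on the array gave no signal. The 10 relatives comprise star strands of miR-128, miR-137, miR-138, miR-153 and miR-218a, the paralog miR-218b and miR-218a itself. Apart from miR-218a, none of them was detected in any rat, with signals from -7.21 to 1.40 units. For miR-128, miR-137, miR-153 and miR-218a, only the dominant strand was therefore seen.

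Detection in all 4 older rats and in no younger rat was shared with miR-124 by 4 further miRNAs of the 677 on the array. The older arrays detected more miRNAs in general, and these 4 were picked by their detection. An age difference was therefore built into the choice, and their values, intervals and p values are description and no test of age. MiR-488, a miRNA of the brain-expressed Astn1 gene, gave 14.0, 14.1, 9.38 and 13.7 units in rats 2, 4, 10 and 16 and -0.69, 0.01 and -0.25 units in rats 9, 11 and 13. By the bound it lay 4.78-fold above the faintest miRNAs detected on the younger arrays. Where signals were first raised to the faintest detected signal of their array, the bound was 4.42-fold. The study that made these arrays reported no reproducible change of miR-488 when it was measured by quantitative PCR.

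MiR-142-5p, a miRNA of blood cells, gave 15.9 to 51.5 units at 12 months and 4.31 to 9.93 units at 3 months. Its log2 difference was 1.31, with a 95% interval from 0.44 to 2.18 (limma adjusted p = 0.0769). The star strand miR-24-2* gave 5.83 to 9.15 and -0.96 to 2.81 units, with a log2 difference of 1.27 and a 95% interval from 0.25 to 2.29 (limma adjusted p = 0.142). The star strand miR-30c-1*, at 2.69 to 4.92 and 0.91 to 1.47 units, was among the faintest detected, and its bound of 1.30-fold fell to 1.04-fold with the signals raised in that way. None of the 4 was on the list of other neuronal miRNAs. In rat 4, which had the lowest miR-124 of the older rats, miR-488 was close to that of rat 2 (14.1 and 14.0 units).

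The 34 names on the list of other miRNAs known from neurons or brain gave 31 miRNAs on the array. Of these, 18 were tested, 10 of the rest were detected on no array and 3 on some arrays only. None of the 18 passed the limma test with adjustment over all miRNAs. At an unadjusted p below 0.05 the list held 5 that were higher at 12 months and 1 that was lower. Over all 272 miRNAs tested, 25 were higher and 34 lower at this threshold, together 21.7%. The methods' t-test gave 5 at the unadjusted threshold and 0 after adjustment. The ages did not overlap for 5 of the 18, beside 17.3% of all tested. In direction, 12 of the 18 were higher and 6 lower, with a median log2 fold change of 0.15 beside 0.06 for all miRNAs.

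The values of the 6 past the unadjusted threshold were modest. MiR-129-1* and miR-129-2*, the star strands of a miRNA that tunes synaptic scaling, had log2 differences of 0.88 and 0.76 (limma adjusted p of 0.0608 and 0.0799). They come from related hairpins, so their signals may be partly shared. For miR-129-1* the study that made these arrays reported no reproducible change by quantitative PCR. MiR-330* had a log2 difference of 1.75 (limma adjusted p = 0.0646), on signals of 4.14 to 10.5 units at 12 months and -0.39 to 2.70 units at 3 months.

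MiR-338, a miRNA of oligodendrocytes and neurons, had a log2 difference of 0.46 (limma adjusted p = 0.153). MiR-323, from the imprinted Dlk1-Dio3 cluster, had one of 0.50 (limma adjusted p = 0.160), and its ages overlapped. MiR-219-5p, the other miRNA of oligodendrocytes, had a log2 difference of -0.51 (limma adjusted p = 0.199). MiR-132 and miR-212, which are induced by neuronal activity and by cAMP, had differences of 0.06 and -0.29 with limma adjusted p values of 0.953 and 0.399. MiR-134, a dendritic miRNA, was detected in 3 of the 4 older rats and in none of the younger ones and was not tested. The same counts held for miR-134*, whereas miR-139-5p was detected in 1 older and 2 younger rats. Neither of these was tested.

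**Figure D5:**
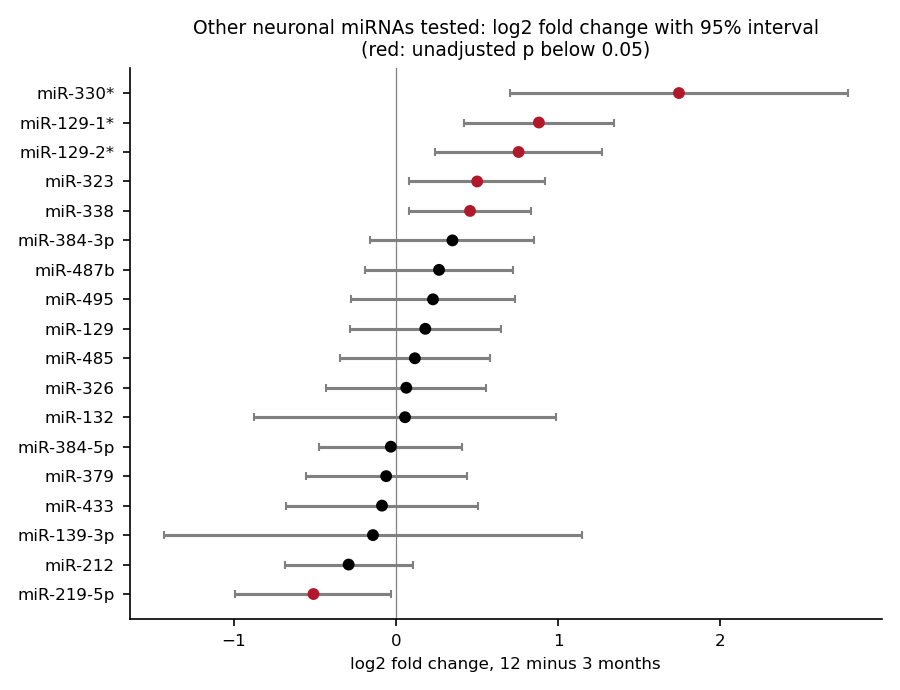
Log2 fold change (12 minus 3 months) with its 95% interval for the 18 tested miRNAs on the list of other neuronal miRNAs, in red where the unadjusted p was below 0.05. The differences run from -0.51 for miR-219-5p to 1.75 for miR-330*, and none passed adjustment over all miRNAs.

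Markers of other cells were compared between the same rats, and only the leukocyte sums did not overlap between the ages. The 3 acinar miRNAs measured were all lower at 12 months (median log2 fold change -2.11). Their summed normalized level was 123 to 1376 units at 12 months and 1211 to 2853 units at 3 months. The 1376 units were those of rat 10, which had the highest miR-124. All 5 mesenchymal miRNAs were higher (median 1.16), with sums of 1912 to 2801 and 1216 to 1918 units. Both the acinar and the mesenchymal sums thus overlapped between the ages. Of 4 leukocyte miRNAs 3 were higher (median 0.62), with sums of 261 to 488 and 225 to 253 units. The sums overlapped as well for the endothelial (1623 to 2170 and 1702 to 1826 units) and erythroid miRNAs (121 to 229 and 95.1 to 302 units). They also overlapped for the muscle miRNAs (22.5 to 38.4 and 18.6 to 28.2 units).

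Both glial miRNAs tested moved past the unadjusted threshold, in opposite directions, with overlapping sums of 161 to 214 and 179 to 227 units, and miR-219-2-3p was detected on no array. None of the marker miRNAs passed the limma test with adjustment over all miRNAs. In bulk islets, fewer cells of a type and less RNA per cell cannot be told apart, and the part of these other cells in the miR-124 result was not tested.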

How the data were processed

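Islet RNA of 4 rats aged 12 months and 3 aged 3 months had been labelled with Cy3 and hybridised to Agilent single-colour miRNA arrays. The authors deposited the output of Agilent Feature Extraction (version 10.7.3.1), which gives background-subtracted intensities on a linear scale and a detection flag for each miRNA. They also deposited a matrix of quantile-normalized log2 values, used here as an alternative. The groups are the ages given by the labels.

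Total gene signals of the 677 rat miRNAs were raised to at least 1 unit, put on a log2 scale and quantile normalized by limma 3.58.1 under R 4.3.3. MiRNAs detected in every rat of one or both ages (272) were tested with lmFit and eBayes (3.03 prior degrees of freedom), with Benjamini-Hochberg adjustment over all of them. All tests are two-sided. Exact permutation tests took the share of the 35 splits with an absolute difference of means at least as large, so the smallest p is 0.0286. The methods name Student's t-test for the study as a whole, and it was run as an alternative. A bound was taken on quantile-normalized log2 values. It was the mean of the older rats minus the mean over the younger arrays of the faintest detected value. Where the miRNA's own value was higher, that value was used. Undetected miRNAs can exceed the faintest detected one, so a bound is no strict minimum. The normalization, filter and limma fit were tested on simulated data. These had equal brightness at both ages and changes only in miRNAs well above the floor.

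The neuronal miRNAs and the lists were chosen with earlier results of these data known. The text names every neuronal miRNA found and its relatives, up to 5 miRNAs with the detection pattern of miR-124 by size of bound, and, from the list of other neuronal miRNAs, those with an unadjusted p below 0.05 (up to 8 by p). MiR-132, miR-134 and miR-212 are named as neuron markers. MiR-134* and miR-139-5p are named because, like miR-134, they were detected on some arrays only. Alternatives covered signal summary, normalization, filter, floor, normexp background correction, variance model, array weights, slide row, leaving out each rat and the deposited matrix. Normexp used the median spot signal with an offset of 16. The fit without acinar, mesenchymal and leukocyte miRNAs was added after the data were seen. Each rat gave 1 array, so p values set the age difference against a spread in which rat and array cannot be separated. The number of arrays limits the precision. No spot was saturated (0 on each array). Coordinates and sequences are from RefSeq (GRCr8). The array header names an older rat assembly, and no coordinate was taken from it.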

Additional observations from a re-analysis of the deposited data

Results flagged for a closer look

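Among the normalized signals of the detected neuronal miRNAs and of the other neuronal miRNAs named, and the ratios to miR-124, 15 measures were checked for a rat far from the rest of the 12-month-old group, and 1 stood out. MiR-219-5p was 6.10 (log2) in rat 4 and 6.50 to 6.51 in rats 2, 10 and 16. The gap between rat 4 and its nearest neighbour was 0.962 of the range of the group. Chance marks about 1 in 20 such groups.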

How the results depend on the processing

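The log2 fold change of miR-124 was positive under all 22 alternatives that gave a value (1.06 to 6.0), and its limma adjusted p stayed below 0.05 except in 3. It was 5.42 without the detection filter (adjusted p = 0.147), 1.06 with normexp (0.108) and 5.42 with the methods' t-test (0.0880). With a filter for detection on all arrays miR-124 was not tested. In the deposited matrix it was 2.77 (0.0329). The number of neuronal miRNAs past the adjusted threshold, 1 in the reported fit, was 4 without normalization and 0 with detection on all arrays, without the filter, with normexp and with the t-test.

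The near-zero differences turned their sign. MiR-128 was 0.080 and 0.17 after scaling to the 75th percentile, taken over miRNAs detected in all rats and over all miRNAs, 0.80 without normalization, 0.0025 with normexp and 0.19 with array weights. MiR-137 was 0.017, 0.11, 0.74 and 0.29 under the same settings except normexp. MiR-153 was 0.040 with the 75th percentile of all miRNAs and 0.67 without normalization. With acinar, mesenchymal and leukocyte miRNAs left out, miR-124 was 5.44. With each rat left out, miR-128 ran from -0.16 to 0.086 and miR-137 from -0.23 to 0.079, and both were above 0 without rat 4, rat 10 or rat 13.

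Over all miRNAs the count of adjusted calls, 4 in the reported fit, was 20 and 9 with the 75th percentiles, 15 with scaling to miR-7a, 171 without normalization, 1 with detection on all arrays, 2 with normexp, 48 with array weights and 8 in the deposited matrix. It was 4 to 10 with each rat left out, and 10 without rat 10. The count of unadjusted calls, 59 (25 higher, 34 lower), was 37 (9 and 28) with miR-7a, 193 (189 and 4) without normalization, 89 (49 and 40) with array weights and 41 to 88 with a rat left out. The t-test gave 49 unadjusted and 3 adjusted calls. The median of all miRNAs was 0.06, and 0.16 with the 75th percentile of all miRNAs, -0.08 with miR-7a and 0.79 without normalization. The ratio of miR-124 to miR-128 was 4.88 with a floor of 1 unit and 5.46 on normalized values, and that to miR-218a 4.29 and 4.6 (exact p = 0.0286 each). The ratio to miR-153 was 2.87 in the deposited matrix (exact p = 0.0571). The cause of these changes was not tested. No paired analysis was possible because the 2 ages share no replicate numbers.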
